A study of Caenorhabditis elegans with 104 samples.

Results

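Among worms of the same chronological age, some carried much more oocyte mRNA than others, and the 17 worms with the most were set against the 17 with the least. These 34 worms were drawn from the 51 that had been harvested at days 12, 14 and 16, of 104 worms in the series. Each worm's oocyte score was the mean of 4 transcripts, puf-5, cbd-1, rme-2 and cey-3, each expressed as its deviation from the mean of all worms of that age. The high-score set held 6 worms of day 12, 5 of day 14 and 6 of day 16, and the low-score set held the same numbers. The remaining 17 worms formed a middle set that entered no group of the comparison.

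All worms were wild-type N2 Caenorhabditis elegans from a single timed egg lay of 2 hours, kept at 20 °C on plates seeded with OP50 bacteria. One worm was hybridised per array, labelled with Cy5, against a common pool of RNA from 15 worms aged 4 days, labelled with Cy3, so that no dye swap separates dye from sample. The other ages held 13 worms at day 4, 17 at day 8, 14 at day 20 and 9 at day 24. High-score and low-score worms did not differ in strain, food, temperature or treatment, and no treatment was given to either. RNA had been amplified in 2 rounds, samples that failed quality control had been discarded, and each worm had been filmed before freezing (the films were not analysed here). All worms of an age were collected together, so effects of age and of the collection day cannot be told apart. Worms of the same age were separate animals, and nothing in the labels pairs a worm of one set with a worm of the other. Values are the deposited log ratios, read here as log2 of worm over pool. Neither the log base nor the direction is stated in the sources used here, and a ratio running the other way would turn every direction given below. Each value is an average over a whole animal, so fewer cells of a type and less RNA per cell cannot be told apart.

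The hermaphrodite gonad is a tube in which germ cells divide at the distal tip, enter meiosis, and grow as oocytes along the proximal arm, where they are loaded with maternal mRNA, take up yolk and acquire the proteins of the future eggshell. RNA-binding proteins hold much of the maternal mRNA silent until maturation, fertilisation or early embryogenesis. Self-fertile worms stop laying eggs within the first part of adult life, when their own sperm is used up, while the gonad remains and goes on to change with age. The 4 score genes belong to the oocyte end of this path: puf-5 encodes a Pumilio-family RNA-binding protein of growing oocytes, cbd-1 a chitin-binding eggshell protein, rme-2 the receptor through which oocytes take up yolk, and cey-3 a Y-box RNA-binding protein of the germline.

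The score ran between 0.45 and 1.61 in the high-score worms, with a median of 0.95, and between -1.72 and -0.43 in the low-score worms, with a median of -0.88. The last high-score worm stood at 0.45 and the nearest middle worm at 0.41, while the last low-score worm stood at -0.43 and its nearest middle neighbour at -0.38, so both limits cut through a continuous spread. Before centring on age, the mean log2 ratio of the 4 genes was 0.10 ± 0.38 in high-score worms and -1.76 ± 0.41 in low-score worms (SD, n = 17 each), with -0.75 ± 0.33 in the 17 middle worms. At day 8 the same mean was 0.43 ± 0.35 (SD, n = 17) and at day 4 it was 0.34 ± 0.50 (SD, n = 13). All 17 high-score worms lay inside the range of the worms of days 4 and 8, which ran between -0.61 and 1.35, and all 17 low-score worms lay below that range. Deviations of the 4 genes from their age means correlated with Pearson's r of 0.74 to 0.87 over the 51 worms. This is a description, since the points share arrays and the genes were pooled for the score.

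**Figure D1:**
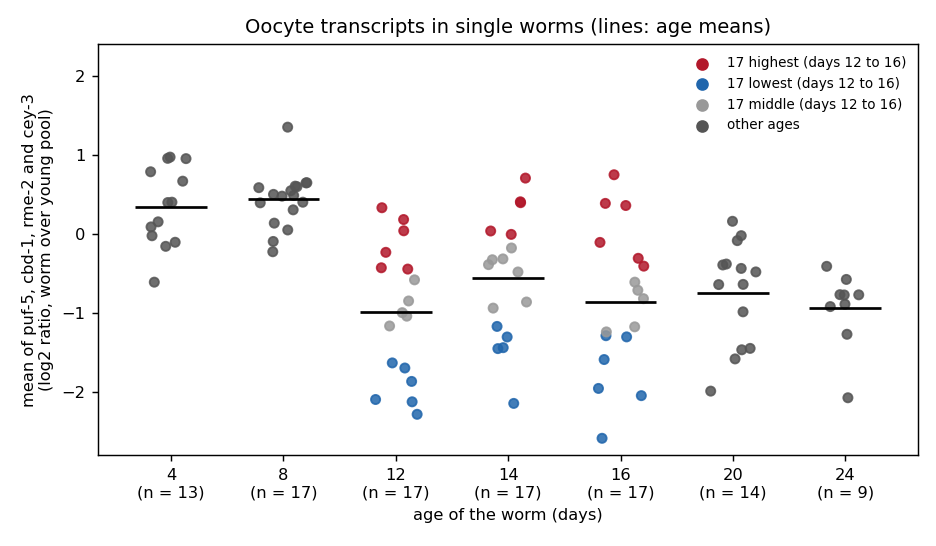
Mean log2 ratio of puf-5, cbd-1, rme-2 and cey-3 in each of 104 worms (vertical axis) by age in days (horizontal axis). Each point is 1 worm, red for the 17 highest, blue for the 17 lowest and light grey for the 17 middle worms of days 12 to 16, dark grey for other ages, and lines are age means. Worms of days 12, 14 and 16 spread between -2.59 and 0.75, while worms of day 8 lie between -0.23 and 1.35.

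By itself, puf-5 had log2 ratios of -0.36 to 2.0 in high-score worms (median 0.41) and -2.29 to -0.31 in low-score worms (median -1.22). The yolk receptor gene rme-2 had -0.79 to 1.19 (median 0.05) in high-score worms and -2.96 to -1.09 (median -2.05) in low-score worms. For cbd-1 the medians were 0.04 in high-score and -2.26 in low-score worms, and for cey-3 they were -0.26 and -1.76 in the same order of sets. The worms were chosen by these values, which are therefore not tested.

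Of 18885 other genes, 1906 were higher in the high-score worms (10.1%) and 2171 were lower (11.5%), at an adjusted p under 0.05 with limma and age in the model. The difference was at least 2-fold for 494 of the higher and 900 of the lower genes. Leaving out each of the 34 worms in turn gave 3795 to 4369 differing genes, and 84.5% of the 4077 were called every time. A slope of each gene on the score over all 51 worms called 2214 genes upward (11.7%) and 2621 downward (13.9%), among them 1794 of the 1906 and 2011 of the 2171 in the same direction.

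The score and all other genes were read from the same arrays, and the arrays of the 2 sets differed in spread. The SD of all log2 ratios on an array averaged 1.14 in high-score and 1.08 in low-score worms (two-sided permutation test over 17 and 17 arrays, p = 0.00137 adjusted over 5 measures). The median absolute deviation from the mean of the same age averaged 0.50 in high-score and 0.43 in low-score worms (permutation test, adjusted p = 0.00105). The median absolute deviation within an array averaged 0.587 in high-score and 0.592 in low-score worms (permutation adjusted p = 0.00105). Array medians (permutation adjusted p = 0.583) and the number of probes without a value, which averaged 93.5 in high-score and 138 in low-score worms (permutation adjusted p = 0.163), showed no difference past the threshold. With array SD added to the model, a step chosen after seeing the data, 1460 genes were higher and 1351 lower. Of the genes called at first, 1244 of the 1906 and 1195 of the 2171 kept their call, and 0 changed sign.

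Messenger RNAs that oocytes store for the embryo were higher in high-score worms. Of 39 measured genes of oocyte maturation and maternal RNA control other than the score genes, 25 were higher and 1 was lower, and the median difference was 0.80 on the log2 scale, against -0.05 over all genes. The mean of this list lay above that of every low-score worm in all 17 high-score worms. Within days 12, 14 and 16 taken alone the list's median difference was 0.57, 0.76 and 0.77.

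The Pumilio-family gene puf-7 had -0.25 to 2.22 (median 0.68) in high-score worms and -2.27 to -0.18 (median -1.24) in low-score worms. That is a difference of 2.02 (SE 0.22, limma adjusted p = 1.04e-07), with 16 of 17 high-score worms above all low-score worms. Its relative puf-6 differed by 1.37 (SE 0.21, limma adjusted p = 1.34e-05). The decapping-related RNA-granule gene car-1 had a median of -0.12 in high-score and -1.42 in low-score worms, a difference of 1.29 (SE 0.14, limma adjusted p = 7.79e-08). The helicase gene cgh-1, whose product protects stored mRNA in the same granules, differed by 1.22, the polyadenylation-element-binding gene cpb-3 by 1.52, and daz-1, needed for oogenesis, by 1.16. The translational regulator spn-4 ran between 0.31 and 2.32 in high-score worms and between -1.46 and 0.99 in low-score worms, with 11 of 17 high-score worms above all low-score worms. The redundant pair of CCCH zinc-finger genes that trigger the oocyte-to-embryo transition differed less, oma-1 by 0.63 and oma-2 by 0.96, and their groups overlapped. The 1 lower gene, picked out after its value was seen, was cey-1, a Y-box gene that is also active in somatic tissue (-0.53, limma adjusted p = 0.0182).

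Eggshell genes showed the same direction. Of 21 measured genes of the eggshell and egg activation, 14 were higher and 0 lower, with a median difference of 0.76. The chondroitin proteoglycan gene cpg-2, whose product forms part of the eggshell, had 0.25 to 2.65 (median 1.67) in high-score worms and -2.24 to 0.97 (median -0.51) in low-score worms. Its difference of 2.22 (SE 0.24, limma adjusted p = 7.79e-08) is a 4.65-fold change, and 13 of 17 high-score worms lay above all low-score worms.

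The companion gene cpg-1 differed by 1.5, and cpg-3 by 1.76. The pseudophosphatase genes egg-5 and egg-4, which hold back the kinase MBK-2 until the egg is activated, differed by 1.79 (SE 0.18) and 1.70 (SE 0.20). The pair are near-identical copies, so their single values are uncertain. Both egg-5 probes gave similar differences, 1.72 and 1.86. The egg surface gene egg-1, which sperm need for entry, differed by 1.56, and egg-3, which anchors MBK-2 at the cortex, by 1.45. For egg-2, the paralog of egg-1, the mean of 2 probes differed by 0.73, but the probes disagreed, with 1.74 and -0.29. The sugar dehydrogenase gene sqv-4, which makes a precursor of chondroitin, differed by 1.32. The chitin synthase gene chs-1 did not pass the test (0.53, SE 0.26, limma adjusted p = 0.153), with -1.47 to 1.56 in high-score and -1.35 to 1.17 in low-score worms.

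**Figure D2:**
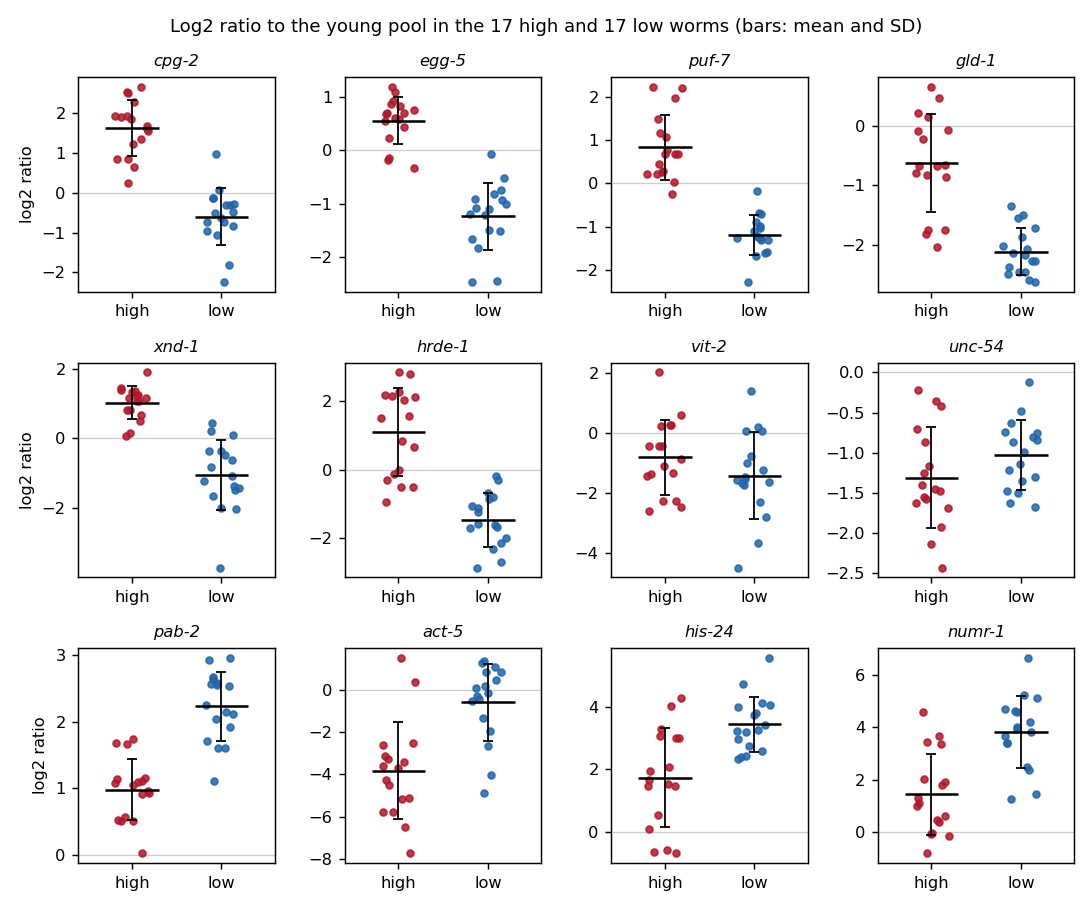
Log2 ratio to the young pool (vertical axes, scales differ between panels) of 12 genes in the 17 high-score worms (red, left) and the 17 low-score worms (blue, right). Points are worms, and black bars are the mean and SD. The sets barely overlap for cpg-2, puf-7 and xnd-1, overlap almost fully for vit-2 and unc-54, and stand in the opposite order for pab-2, act-5, his-24 and numr-1.

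Genes of earlier germ cells were higher too. Of 41 genes of germline proliferation and meiosis, 30 were higher and 0 lower, with a median difference of 0.73. The list's mean in high-score worms was -0.15 ± 0.27, against -0.95 ± 0.29 in low-score worms (SD, n = 17 each). The middle worms averaged -0.63 ± 0.23 (SD, n = 17) and worms of day 8 averaged -0.08 ± 0.21 (SD, n = 17). Within days 12, 14 and 16 alone the list's median difference was 1.11, 0.74 and 0.71.

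Among these genes, xnd-1, which sets the place and number of meiotic crossovers on the X chromosome, had 0.08 to 1.90 (median 1.15) in high-score worms. In low-score worms it had -3.72 to 0.45 (median -1.09), so the difference was 2.08 (SE 0.25, limma adjusted p = 2.63e-07). The meiotic cohesin gene rec-8 differed by 1.44 (SE 0.16), with 16 of 17 high-score worms above all low-score worms. Genes of the chromosome axis and synaptonemal complex followed, him-3 with 1.56, syp-4 with 1.36 and syp-3 with 1.18, as did dsb-1 (1.31), needed for meiotic DNA breaks, and cosa-1 (1.03), which marks crossover sites.

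Regulators of the stem cell pool stood in the same direction. The Notch receptor gene glp-1, which keeps distal germ cells dividing, differed by 1.31 (SE 0.27), and fbf-2, a Pumilio-family gene acting downstream of it, by 1.90 (SE 0.27). The translational repressor gene gld-1, which acts in meiotic entry and oocyte development, had -2.03 to 0.66 (median -0.67) in high-score worms and -2.63 to -1.36 (median -2.18) in low-score worms. Its difference was 1.49 (SE 0.23, limma adjusted p = 8.86e-06), and 13 of 17 high-score worms lay above all low-score worms.

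P granules are RNA-rich bodies of germ cells, and many germline small-RNA factors sit in or near them. Of 25 genes in that list, 17 were higher and 0 lower, with a median difference of 0.77. The nuclear Argonaute gene hrde-1, which carries inherited silencing, had -0.93 to 2.84 (median 1.52) in high-score worms and -2.86 to -0.19 (median -1.6) in low-score worms. Its difference of 2.56 (SE 0.36, limma adjusted p = 2.66e-06) is a 5.89-fold change. The P granule scaffold genes pgl-1, pgl-2 and pgl-3 differed by 1.52, 1.29 and 1.02, although the 4 probes of pgl-3 ran between 0.35 and 2.09, and mip-1, mip-2 and deps-1, which act in P granule assembly, by 1.67, 1.14 and 0.90. The secondary Argonaute gene wago-1 differed by 1.26, and its relative ppw-2, one of the largest differences of all genes, by 2.05 (SE 0.37). With nos-1, a Nanos-family gene of the germline, and snpc-1.4, a factor that drives piRNA transcription, all 17 high-score worms lay above all 17 low-score worms, with differences of 1.91 and 1.93.

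Cell-cycle genes were taken in 2 lists. Of 58 genes of oocyte meiosis and embryonic cell division, 10 were higher (17.2%, beside 10.1% over all genes) and 4 lower, with a median of 0.10. Of 44 DNA replication genes 8 were higher (18.2%) and 1 lower, with a median of 0.11. Among the members with the smallest p were the cyclin B gene cyb-2.1 (1.56), the phosphatase gene cdc-25.1 (1.34), the katanin subunit genes mei-2 (1.45) and mei-1 (0.79) of the meiotic spindle, and wee-1.3 (0.83), which holds oocytes at prophase. The anaphase-promoting complex gene apc-10 (1.11) and the spindle-positioning gene let-99 (1.00) were higher too, while the alpha-tubulin gene tba-1 (-0.57) and another anaphase-promoting complex gene, emb-30 (-1.41, picked out after its value was seen), were lower. Of the replication genes, the origin recognition subunit orc-1 differed by 1.5 and the GINS complex members psf-2, psf-1 and psf-3 by 1.41, 1.15 and 0.71. The single-strand DNA-binding gene rpa-1 was the 1 lower member (-0.93).

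Of 89 sperm genes 9 were higher (10.1%, beside 10.1% over all genes) and 3 lower (3.37%, beside 11.5%), with a median of -0.01. The higher ones included spe-5 (1.57), spe-44 (1.00) and spe-6 (0.98). These encode a proton-pump subunit needed in sperm formation, a transcription factor of sperm genes and a sperm kinase. Of 40 genes of the gonad sheath, spermatheca and uterus 4 were higher (10%) and 6 lower (15%), near the shares over all genes. The higher ones included inx-22 (1.1) and inx-21 (1.04), innexins of the junctions between germ cells and sheath that are made in germ cells, and the lower ones included cdh-3 (-1.33), zmp-1 (-0.87) and ajm-1 (-0.80), genes of epithelial and anchor-cell tissue. Of 24 egg-laying and vulva genes 1 was higher (4.17%) and 3 lower (12.5%). Of 40 genes of zygotic embryos and early patterning 4 were higher (10%) and 5 lower (12.5%), again near the shares over all genes. With array SD in the model 0 embryo genes were higher and 5 lower, 2 gonad genes higher and 6 lower, and 6 sperm genes higher and 0 lower. Over all 18885 genes that model gave 1460 higher and 1351 lower.

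The membrane-scaffold gene cav-1, made in the germline and embryo, was lower, with -0.42 to 4.39 (median 2.27) in high-score worms and 2.15 to 5.07 (median 3.74) in low-score worms. Its difference was -1.90 (SE 0.41, limma adjusted p = 0.000754). The maternal transcription factor gene skn-1 was close to 0 (-0.07, SE 0.13, limma adjusted p = 0.781).

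Yolk protein genes are expressed in the intestine, and the protein is taken up by oocytes through RME-2. Of 6 measured vitellogenin genes 0 were higher and 1, vit-1, was lower (-0.92, SE 0.28, limma adjusted p = 0.0161), while the median difference of the 6 was 0.37. Under quantile scaling the vitellogenin median was 0.43, with 1 higher and 0 lower, and with array SD in the model it was 0.65, with 2 higher and 0 lower. The call of vit-1 was lost under quantile scaling (limma adjusted p = 0.495), where vit-6 was called instead. For vit-2, values ran between -2.61 and 2.01 in high-score worms and between -4.50 and 1.39 in low-score worms, and the difference of 0.62 (SE 0.45) had a limma adjusted p of 0.378. With array SD in the model vit-2 and vit-6 were called higher, by 1.66 and 1.57 (limma adjusted p = 0.0101 and 0.00324). The yolk genes are closely alike in sequence and their single values are uncertain: 1 of the 4 vit-4 probes was lower by itself (-1.09, limma adjusted p = 0.000128) while the mean of the 4 was not (-0.11, limma adjusted p = 0.666).

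**Figure D3:**
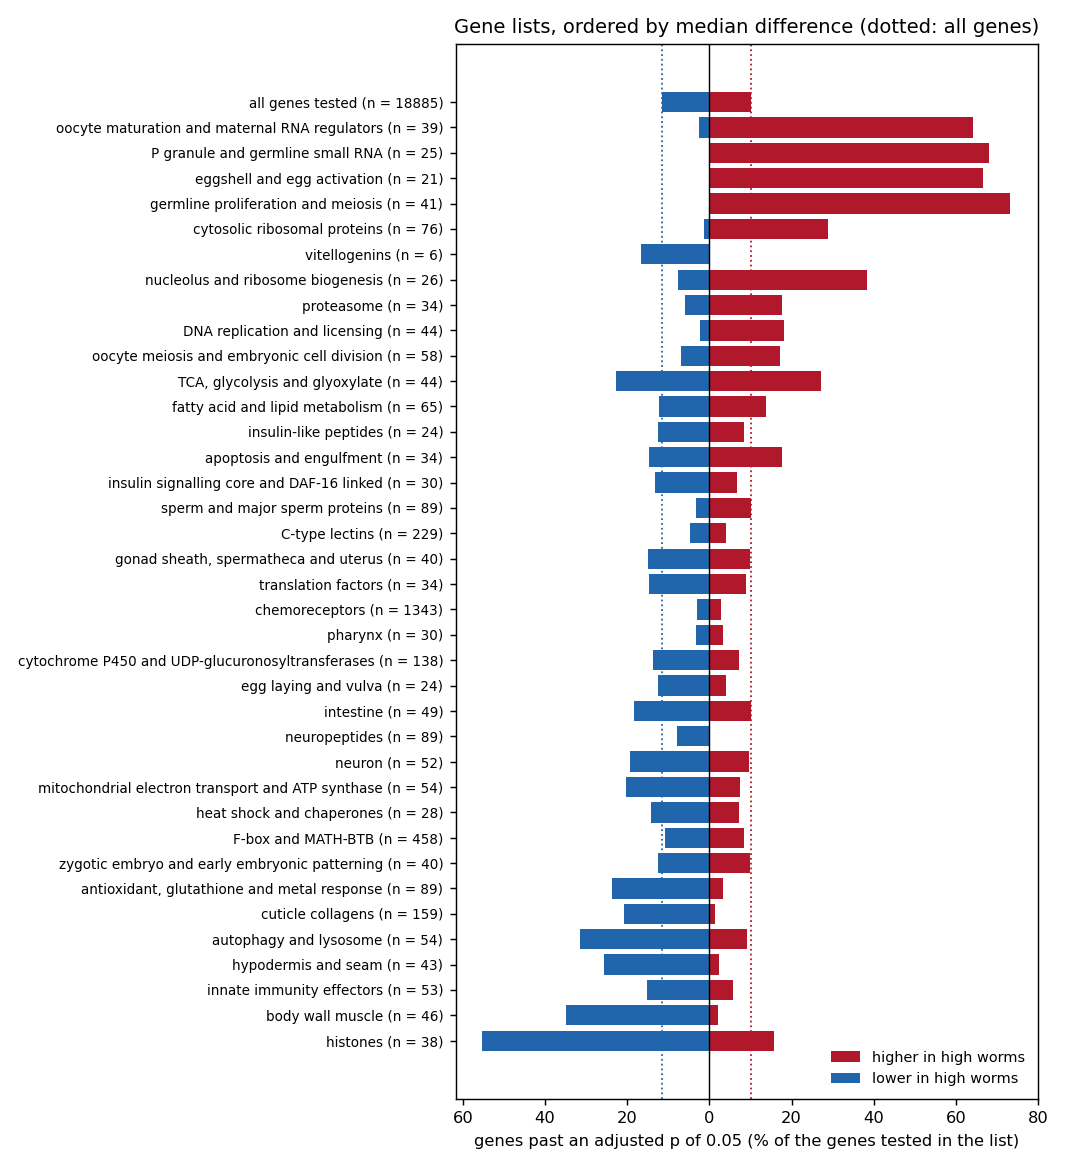
Share of the genes of 37 lists that were higher (red, right) or lower (blue, left) in high-score worms, in percent of the genes tested, ordered by the list's median difference, with all 18885 genes at the top. Dotted lines mark the shares over all genes, 10.1% higher and 11.5% lower. The 4 germline and oocyte lists at the top hold between 64.1% and 73.2% higher genes, and histones, at the bottom, hold 55.3% lower genes.

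Lists of body wall muscle and of the epidermis held more lower than higher genes. Of 46 body wall muscle genes 16 were lower (34.8%, beside 11.5% over all genes) and 1 higher, with a median of -0.38. With array SD in the model 7 were lower (1351 of all genes), and under quantile scaling 10 (1862 of all genes). The list's mean was -0.66 ± 0.32 in high-score and -0.30 ± 0.19 in low-score worms (SD, n = 17 each). The integrin adhesion gene unc-112 had -0.92 to 0.42 (median -0.43) in high-score worms and -0.40 to 1.82 (median 0.78) in low-score worms, a difference of -1.22 (SE 0.19, limma adjusted p = 9.03e-06). Its partner pat-6 differed by -0.88, the actin gene act-4 by -1.08 and the troponin T gene tnt-2 by -0.72. The 2 probes of act-4 gave unequal differences, -1.81 and -0.35. The major myosin heavy chain gene unc-54 did not pass the test (-0.28, SE 0.19, limma adjusted p = 0.332), and its groups overlapped almost fully.

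Of 159 cuticle collagen genes 33 were lower (20.8%, beside 11.5% over all genes) and 2 higher (1.26%, beside 10.1%). Under quantile scaling 16 of the 159 were lower, beside 1862 of all 18885 genes, and with array SD in the model 11 were lower, beside 1351. In both of these settings the share of lower collagen genes was near that over all genes. All 17 high-score worms had a collagen mean below the median of the low-score worms. The largest of the 4 named members was col-160, with -7.84 to -3.67 (median -6.13) in high-score worms and -5.52 to -2.88 (median -3.94) in low-score worms, a difference of -2.02 (SE 0.31). Members col-45 and col-39 differed by -1.56 and -1.28. For col-159 the difference of -0.97 was lost under quantile scaling (limma adjusted p = 0.424). Of 43 other genes of the hypodermis and seam, 11 were lower (25.6%) and 1 higher (2.33%), or 7 and 3 with array SD. The lower ones included sym-1 (-1.31), che-14 (-1.14), noah-2 (-0.97) and mup-4 (-0.93). These act in apical secretion, the extracellular matrix and attachment of muscle to the cuticle.

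Of 52 neuronal genes, 10 were lower (19.2%, beside 11.5% over all genes) and 5 higher (9.62%, beside 10.1%). Once array SD was in the model, 5 were lower and 2 higher. The touch-neuron tubulin gene mec-7 differed by -1.14 and the neuronal gene unc-119 by -1.01, while tdc-1, which makes tyramine in neurons and in gonad sheath cells, was higher by 1.08, with unequal probes (1.89 and 0.28). Of 89 neuropeptide genes 7 were lower (7.87%) and 0 higher, with 3 lower and 2 higher under the array SD model. Of 30 pharynx genes 1 was lower (3.33%) and 1 higher (3.33%).

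Of 49 intestinal genes, 5 were higher (10.2%, beside 10.1% over all genes), 9 were lower (18.4%, beside 11.5%) and 35 did not pass the test. The list's median was -0.11, and quantile scaling gave 9 higher and 7 lower. The saposin-like gene spp-1 had -0.99 to 4.45 (median 1.93) in high-score worms and -2.57 to 1.6 (median -0.81) in low-score worms, a difference of 2.85 (SE 0.40, limma adjusted p = 3.36e-06). The iron-storage ferritin gene ftn-1 had 0.86 to 5.52 (median 3.24) in high-score worms and -0.98 to 2.25 (median 1.12) in low-score worms, a difference of 2.2 (SE 0.36), and the gut cysteine protease gene cpr-1 differed by 2.45 (SE 0.61).

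In the other direction, act-5, the actin of intestinal microvilli, had -7.73 to 1.49 (median -3.71) in high-score worms and -4.89 to 1.37 (median -0.17) in low-score worms. Its difference of -3.24 (SE 0.63, limma adjusted p = 0.000214) was the largest of all lower genes, yet 1 high-score worm lay above every low-score worm. The fatty acid desaturase gene fat-7 differed by -1.70 (SE 0.21), with 16 of 17 high-score worms below all low-score worms, and the aspartic protease gene asp-4 by -1.86. The microvillar gene eps-8 differed by -0.87. Its probes gave -0.53, -1.14 and -0.94, of which only the one at -1.14 passed by itself (limma adjusted p = 0.0616, 5.52e-05 and 0.133). For acdh-1, an acyl-CoA dehydrogenase, the difference of -0.67 was lost under quantile scaling (limma adjusted p = 0.739), and its 2 probes disagreed, with 0.05 and -1.39. The gut esterase gene ges-1 did not pass the test (0.09, SE 0.29, limma adjusted p = 0.872).

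Of 53 genes of innate immunity, 3 were higher (5.66%, beside 10.1% over all genes), 8 were lower (15.1%, beside 11.5%) and 42 did not pass. The invertebrate-type lysozyme gene ilys-3 had 2.54 to 6.58 (median 5.19) in high-score worms and -1.34 to 4.48 (median 2.54) in low-score worms, a difference of 2.90 (SE 0.44, limma adjusted p = 7.35e-06), and both of its probes agreed in direction (2.67 and 3.14). Lower members were the lysozyme gene lys-3 (-2.44), dod-19 (-2.42), the transcription factor gene zip-2 (-1.73) and the p38 kinase gene pmk-1 (-1.37). Of 229 C-type lectin genes 9 were higher (3.93%) and 11 lower (4.80%), and 12 higher and 3 lower under quantile scaling. The lectin gene clec-266 differed by -1.38 (SE 0.42, limma adjusted p = 0.0163). Of 65 lipid metabolism genes 9 were higher (13.8%), 8 were lower (12.3%) and 48 did not pass, with fat-3 (1.41), a desaturase of polyunsaturated fatty acids, and the choline kinase gene cka-1 (1.1) higher and pcyt-1 (-1.17), which acts next to cka-1 in phosphatidylcholine synthesis, lower. Quantile scaling left 10 lipid genes higher and 5 lower, and array SD 12 higher and 3 lower, while the lectins had 5 higher and 6 lower with array SD.

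Of 26 nucleolar and ribosome biogenesis genes 10 were higher (38.5%, beside 10.1% over all genes) and 2 lower (7.69%, beside 11.5%), with a median of 0.30. Fibrillarin, fib-1, had -0.19 to 1.48 (median 0.74) in high-score worms and -2.28 to 0.24 (median -0.61) in low-score worms. The difference of fib-1 was 1.28 (SE 0.19, limma adjusted p = 7.47e-06), and nol-56 (0.88), nol-58 (0.74) and nol-9 (0.74) followed. The 2 lower genes, named after their values were seen, were ddx-52 (-0.79) and nst-1 (-0.37).

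Among the 76 genes for proteins of the cytosolic ribosome, 22 were higher (28.9%) and 1 lower (1.32%), with a median of 0.43. The list's median difference was 0.81 within day 12, 0.30 within day 14 and 0.15 within day 16, and leaving out the low-score worm with the most missing probes brought the count to 16 higher. Members rps-13, rps-8 and rps-2 differed by 0.86, 0.77 and 0.64. The list's mean was 0.37 ± 0.40 in high-score and -0.03 ± 0.60 in low-score worms (SD, n = 17 each), and -0.31 ± 0.60 at day 8 (SD, n = 17). Of 34 translation factors 3 were higher (8.82%, beside 10.1% over all genes) and 5 lower (14.7%, beside 11.5%). The lower ones were led by the initiation factor subunit eif-3.G. All 17 high-score worms (-2.07 to 0.25, median -1.01) lay below all 17 low-score worms (0.40 to 2.54, median 1.24) for eif-3.G, a difference of -2.27 (SE 0.20, limma adjusted p = 7.86e-09). With array SD in the model the translation factors gave 0 higher and 8 lower, beside 1460 and 1351 of all 18885 genes. Complete separation of the sets was also seen for fah-1, nos-1 and snpc-1.4, and its count over all genes is not given here.

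Of 38 histone genes 21 were lower (55.3%, beside 11.5% over all genes) and 6 higher (15.8%, beside 10.1%), with a median of -0.68. This count did not hold with array SD in the model, where 2 were lower and 2 higher and the median was -0.35. The linker histone gene his-24 had -0.68 to 4.28 (median 1.65) in high-score worms and 2.34 to 5.57 (median 3.26) in low-score worms, a difference of -1.71 (SE 0.37, limma adjusted p = 0.000845). It did not pass with array SD in the model (-1.0, limma adjusted p = 0.0937). The linker histone gene hil-3 differed by -1.82, while the linker gene hil-4 (1.06) and the H3.3 gene his-74 (1.39) were higher. Core histone genes are near-identical copies, so their single values are uncertain. The part of the array spread in these counts was not tested.

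Of 54 genes of electron transport and the ATP synthase 11 were lower (20.4%, beside 11.5% over all genes) and 4 higher (7.41%, beside 10.1%). With array SD in the model, however, 1 was lower and 2 higher. The ATP synthase beta subunit gene atp-2 was higher by 0.73, and the complex I and III genes gas-1 and ucr-2.1 were lower, with differences of -1.03 and -0.99. Of the 3 probes of ucr-2.1, 1 did not pass by itself (-0.17, limma adjusted p = 0.682). Of 44 genes of glycolysis, the TCA cycle and the glyoxylate cycle 12 were higher (27.3%) and 10 lower (22.7%), or 7 and 8 with array SD. The gluconeogenic enzyme gene fbp-1 was higher (1.24, SE 0.16), with 15 of 17 high-score worms above all low-score worms. The genes gpd-2 (-1.49), ldh-1 (-1.23) and aldo-1 (-1.21), of glycolysis and lactate production, were lower.

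Of 34 proteasome genes 6 were higher (17.6%, beside 10.1% over all genes) and 2 lower (5.88%, beside 11.5%), or 1 and 2 with array SD. Of 54 autophagy and lysosome genes 17 were lower (31.5%, beside 11.5% over all genes) and 5 higher (9.26%, beside 10.1%). With array SD in the model 15 were lower and 5 higher. The differing genes included epg-7 (-1.22), an autophagy scaffold, and the proton-pump genes vha-20 (-1.11) and vha-7 (1.03). Another was lgg-3 (1.00), which encodes an ATG12-type conjugation protein. Of 89 antioxidant, glutathione and metal-response genes 21 were lower (23.6%) and 3 higher (3.37%), with 9 lower and 2 higher under the array SD model. The metal-responsive nuclear gene numr-1 had -0.79 to 4.57 (median 1.11) in high-score worms and 1.27 to 6.64 (median 3.94) in low-score worms, a difference of -2.36 (SE 0.47, limma adjusted p = 0.000302). The glutathione peroxidase genes gpx-5 (-2.05) and gpx-1 (-1.57) and the methionine sulfoxide reductase gene msra-1 (-1.36) were lower too.

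Of 28 heat shock and chaperone genes 2 were higher (7.14%, beside 10.1% over all genes) and 4 lower (14.3%, beside 11.5%). Among them were hsp-60, the mitochondrial chaperonin, at 1.41 and the small heat shock gene hsp-25 at -0.74. The inducible genes hsp-16.2 (0.79, SE 0.57, limma adjusted p = 0.373) and hsp-70 (0.48, SE 0.36, limma adjusted p = 0.391) did not pass. In both sets hsp-16.2 was spread widely, between 0.06 and 7.99 in high-score worms and between -2.93 and 5.79 in low-score worms. Of 138 cytochrome P450 and UDP-glucuronosyltransferase genes 10 were higher (7.25%) and 19 lower (13.8%). Of 30 genes of the insulin pathway and DAF-16 targets 2 were higher (6.67%) and 4 lower (13.3%), near the shares over all genes. Quantile scaling gave 2 and 2, and the PI3 kinase gene age-1 stood at -0.57. Of 24 insulin-like peptide genes 2 were higher (8.33%) and 3 lower (12.5%), also near those shares, with ins-22 and ins-23 at 1.25 and 1.16. Of 34 apoptosis and engulfment genes 6 were higher (17.6%) and 5 lower (14.7%), with gla-3, a zinc-finger gene that acts in germ cell survival, at 0.95. The probes of gla-3 were unequal, with 1.21, 0.32 and 1.33, and the one at 0.32 did not pass by itself (limma adjusted p = 0.297). Of 1343 chemoreceptor genes, taken by symbol, 38 were higher (2.83%) and 39 lower (2.90%). The 458 genes with F-box or MATH-BTB domains held 39 higher (8.52%) and 49 lower ones (10.7%). With array SD in the model, higher and lower genes numbered 1460 and 1351 of all 18885 genes. They numbered 8 and 11 of the P450 and transferase genes, 0 and 2 of the insulin pathway, and 1 and 0 of the insulin-like peptides. Chemoreceptors had 18 and 24, and the F-box and MATH-BTB genes 31 and 31.

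The largest difference of any named gene belonged to cpr-2, a cysteine protease gene. It had -3.08 to 7.59 (median 4.78) in high-score worms and -0.77 to 3.89 (median 0.38) in low-score worms, a difference of 4.00 (SE 0.61, limma adjusted p = 8.99e-06). In all, 14 of 17 high-score worms lay above all low-score worms, yet 1 lay below all of them. Other large differences above 1.9 were found in scl-2 (2.29), mesp-1 (2.02), a meiotic spindle gene, and egg-6 (1.98).

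Among the lower genes, fah-1, whose product carries out the last step of tyrosine breakdown, separated the sets completely, with -3.81 to 0.20 (median -1.33) in high-score worms and 0.37 to 1.39 (median 1.00) in low-score worms (-2.2, SE 0.26, limma adjusted p = 2.1e-07). Others were cyp-14A5 (-2.86), a cytochrome P450, T19D12.4 (-2.70), T03D8.6 (-2.55), the tyrosine aminotransferase gene tatn-1 (-2.55), rips-1 (-2.50), mboa-3 (-2.45), phf-33 (-2.32), the spermidine synthase gene spds-1 (-2.23), fbxc-57 (-2.22), the sodium-calcium exchanger gene ncx-3 (-2.2) and bra-1 (-2.18).

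The differing genes were spread unevenly over the chromosomes. In the hermaphrodite germline much of the X chromosome is held silent for most of the germ cells' development, and genes for germline functions are scarce on it. Of 2463 tested genes on the X chromosome 55 were higher in high-score worms (2.23%) and 590 were lower (24.0%), with a median difference of -0.26. Of 15450 autosomal genes 1816 were higher (11.8%) and 1495 lower (9.68%), with a median of -0.02. The share of higher genes was 16.9% on chromosome III, 15.4% on I, 11.7% on II, 10.4% on IV and 7.85% on V. Under quantile scaling the X chromosome had 2.80% higher and 21.3% lower genes. Only 2 genes of the 4 oocyte and germline lists lie on the X chromosome.

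**Figure D4:**
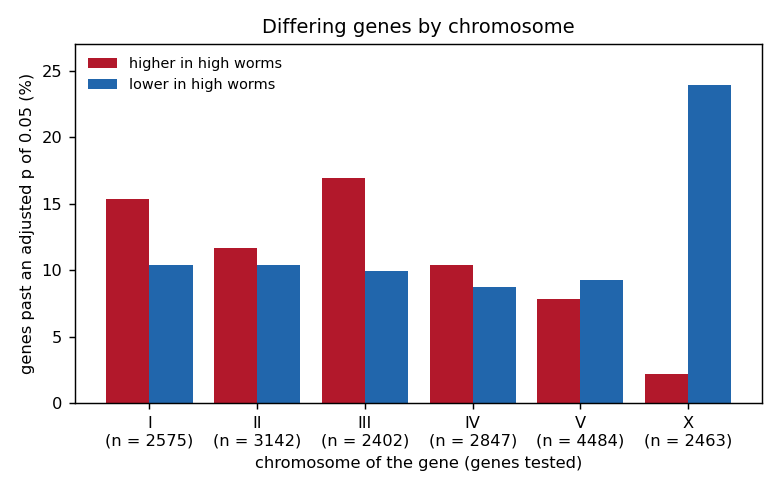
Share of the tested genes of each chromosome (horizontal axis, number tested in parentheses) that were higher (red) or lower (blue) in high-score worms, in percent. The X chromosome has 2.23% higher and 24.0% lower genes, and every autosome has between 7.85% and 16.9% higher and between 8.75% and 10.4% lower genes.

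Worms of other ages had no part in choosing the high-score and low-score sets, and the same score could be computed in them. In the 23 worms of days 20 and 24 the slope of each gene on the score, with age in the model, was positive for 350 genes (1.85%) and negative for 179 (0.948%) at a limma adjusted p under 0.05. Of the 1906 genes higher in mid-life high-score worms, 1710 (89.7%) had a positive slope in these older worms, 318 of them called, and 0 were called in the opposite direction. Of the 2171 lower genes 1933 (89%) had a negative slope, 148 of them called, and 0 were called in the opposite direction. The median slope over all 18885 genes at these ages was -0.03, and the share of all genes with either sign is not given here. Taken from the other side, 318 of the 350 (90.9%) and 148 of the 179 (82.7%) had been called in mid life with the same sign. Log2 ratios of pgl-1 rose by 1.27 per unit of score at days 20 and 24 (limma adjusted p = 0.00446), those of egg-1 by 1.22 (limma adjusted p = 0.000642) and those of hrde-1 by 1.69 (limma adjusted p = 0.00487). Among 41 germline genes 12 had a called positive slope and 0 a negative one, and among 21 eggshell genes 6 and 0. For spp-1 (-0.38), ftn-1 (-0.05) and ilys-3 (0.10) the slopes at days 20 and 24 did not pass (limma adjusted p = 0.652, 0.96 and 0.953). Their slopes at days 12 to 16 were 1.34, 1.07 and 1.5, and the test of the difference between these ages did not pass either (limma adjusted p = 0.733, 0.785 and 0.785).

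At day 8, when the score varied less (SD 0.35 over 17 worms, against 0.85, 0.78 and 0.92 at days 12, 14 and 16), 0 genes were called with a positive slope and 9 with a negative one (0.0477%) by limma, with 1971 at an unadjusted p under 0.05. Of the 1906 higher genes 75.4% had a positive slope, and of the 2171 lower genes 74.3% a negative slope. At day 4 no gene passed in limma (966 at an unadjusted p under 0.05), and the shares with the same sign were 57.4% and 47.4%. The median slope over all genes was -0.02 at day 8 and -0.01 at day 4. As for the older worms, the share of all genes with either sign is not given, so the shares above have no background beside them. The median slope of X-linked genes was -0.17 at days 20 and 24, -0.30 at day 8 and 0.03 at day 4.

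**Figure D5:**
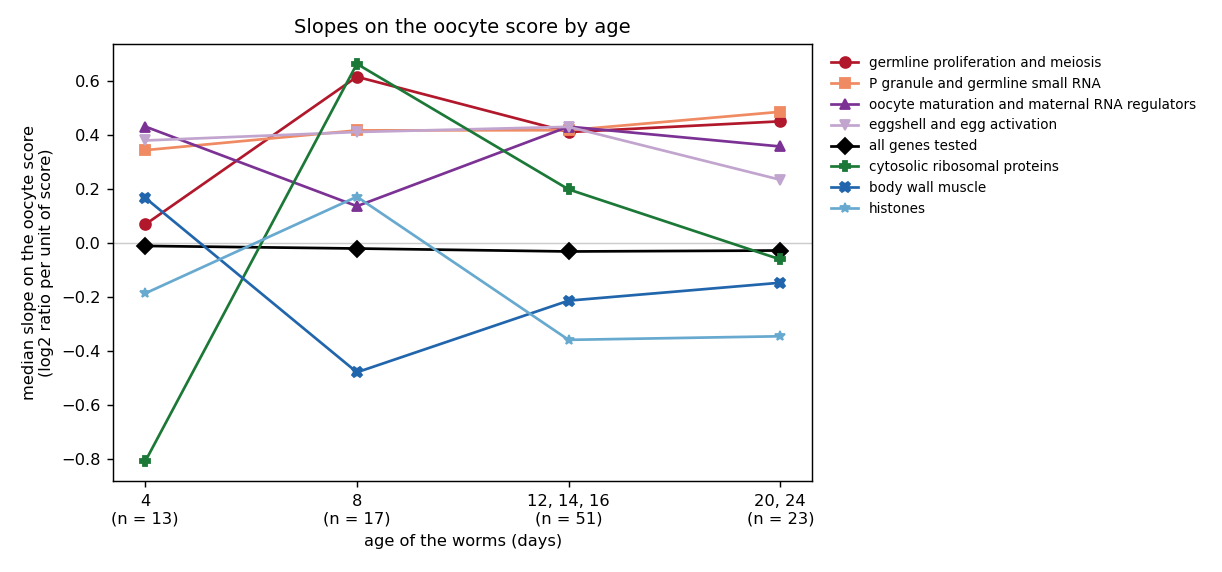
Median slope of the genes of 7 lists and of all genes on the oocyte score (vertical axis, log2 ratio per unit of score) in worms of day 4, day 8, days 12 to 16, and days 20 and 24 (horizontal axis). Points are medians over the genes of a list, joined by lines to guide the eye. The 4 germline and oocyte lists lie above 0 at every age, while the ribosomal list lies at -0.81 at day 4, 0.66 at day 8 and -0.06 at days 20 and 24.

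The slopes were also compared between ages. Among days 12, 14 and 16 the slope differed for 0 genes (limma moderated F test, smallest adjusted p = 0.919, 926 genes at an unadjusted p under 0.05). Between days 20 to 24 and days 12 to 16, a comparison added after seeing the data, it differed for 0 genes (1075 at an unadjusted p under 0.05, limma). Between day 8 and days 12 to 16 it differed for 20 genes (0.106%), and between day 4 and days 12 to 16, also added, for 174 (0.921%).

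Worms of days 20 and 24 were set against worms of day 8, another comparison added after seeing the data that shares no worm with the mid-life sets. In it 2152 genes were higher (11.4%) and 2125 lower (11.3%) in the older worms, by limma at an adjusted p under 0.05. Of the 1906 genes higher in high-score worms, 862 (45.2%) were lower and 25 (1.31%) higher in the older worms. Of the 2171 genes lower in high-score worms, 947 (43.6%) were higher and 75 (3.45%) lower in the older worms. With day 4 in place of day 8 the counts were 655 lower (34.4%) and 40 higher of the 1906. Of the 2171, 936 were higher (43.1%) and 189 lower (8.71%). Over all 18885 genes the comparison with day 4 gave 2096 higher and 2139 lower (11.3%) by limma.

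The older worms had less hrde-1 (-1.80) and less cpg-2 (-1.02) than worms of day 8, and they had more numr-1 (5.02), more fah-1 (1.45) and more act-5 (2.22). With day 4 in place of day 8, numr-1 passed (5.00), while hrde-1 (-0.18), cpg-2 (0.06), fah-1 (0.46) and act-5 (-0.82) did not, with limma adjusted p of 0.805, 0.919, 0.315 and 0.179. Of the 76 ribosomal protein genes 22 were higher in high-score worms. The older worms had 49 of the 76 higher and 0 lower than worms of day 8 (median 0.95), but 1 higher and 3 lower than worms of day 4 (median -0.03). Both asp-4 and fat-7, lower in high-score worms, were also lower in the older worms than at day 8 (-1.33 and -1.07).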

How the data were processed

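The authors deposited 1 log ratio per probe and array, in 2 tables identical in all values, read here as log2. limma is named per the submitters' processing notes, without a version. How background and dye bias were handled is not given in the sources used here. Missing values (0.537%) stayed missing. Of 22490 probes 95.073% matched a RefSeq gene table (WBcel235, names and chromosomes only), and probes of a gene were averaged to 18889 genes, of which 10827 had a gene name. Of 219 genes with at least 2 called probes, 30 had probes called in opposite directions. The tests came from limma 3.58.1 under R 4.3.3, with lmFit, eBayes, age as a factor and Benjamini-Hochberg adjustment over all 18885 genes other than the 4 score genes, at a threshold of 0.05. The fits were tested on simulated data with noise drawn independently for each gene and array. Those data held no shared array effect and no choice of worms from the same values. The number of arrays limits the precision. Named genes were the 15 largest named differences each way, up to 4 (8 for germline, gonad and intestinal lists) members per list with the smallest p, fixed reproductive and stress genes, and 3 genes per difference between ages. Sequence names appear only among the 5 largest. Alternatives changed the scaling, weights, score, worms and ages. The worms, score genes and lists were chosen with earlier results of these data known. No genome was used, so no coordinates or sequences are given. A result on 1 gene is not reported here.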

Additional observations from a re-analysis of the deposited data

Results flagged for a closer look

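The slope on the oocyte score differed between day 8 and days 12 to 16 for 20 genes by limma. The 3 with the smallest p were F53B1.8 (-3.16 per unit of score at day 8 and 0.04 at days 12 to 16, adjusted p = 0.000119), tax-6 (-2.36 and -0.13, adjusted p = 0.00194) and zyx-1 (-1.47 and -0.09, adjusted p = 0.00297).

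Between day 4 and days 12 to 16 it differed for 174 genes by limma, led by F54D5.5 (1.65 per unit of score at day 4 and -0.41 at days 12 to 16, adjusted p = 0.000816), K09H11.6 (-1.50 and 0.28, adjusted p = 0.000816) and F39C12.1 (1.76 and -0.49, adjusted p = 0.00204). Of the other genes chosen by the naming rule, 11 were among the 174. Their adjusted p from limma was 0.0127 for col-39, 0.00558 for pas-4, 0.0127 for ldh-1, 0.0281 for bath-28, 0.0332 for psf-2, 0.0205 for tnt-2, 0.0131 for col-45, 0.048 for bra-1, 0.0104 for act-4, 0.0193 for his-74 and 0.0375 for him-3.

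Among the 9 worms of day 24, 1 lay apart from the rest for rme-2, with a gap of 0.519 of the group's range, and for cey-3, with a gap of 0.578. Such a gap arises by chance in about 1 of 20 groups. Both genes are in the score, and the part of that worm in the slopes at days 20 and 24 was not tested.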

How the results depend on the processing

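No paired analysis was possible because the replicate numbers of the worms were given in accession order and pair nothing. The count of 4077 differing genes kept within 1.5 times under every planned setting that pooled the 3 ages, between 3744 (score without cbd-1) and 4727 (score without rme-2), and ranged between 3795 and 4369 when 1 worm was left out (1759 to 2002 higher, 2006 to 2367 lower). Within 1 age, with 10 to 12 worms each, 547 genes were higher and 391 lower at day 12 (938 in all), 66 and 85 at day 14 (151), and 6 and 12 at day 16 (18). With array SD in the model, 1351 genes were lower. Of 202 named genes with a call, 25 lost it there, 6 under quantile scaling, and 1, ins-39, on leaving out 1 worm. Uncalled genes that turned sign were ges-1 (-0.094 with 12 worms a set, -0.53 within day 16), hsp-16.2 (-0.93 within day 14, -0.11 with array SD), hsp-70 (-0.74 and -0.50 likewise), unc-54 (0.12 and 0.077) and vit-4 (0.048 and 0.019, and 0.20 under quantile scaling). Others were skn-1 (0.069 with 12 worms a set, 0.015 without cbd-1, 0.16 within day 16), sysm-1 (0.33 under quantile scaling), vit-2 (-0.0027 within day 16) and vit-3 (-0.010 without rme-2, -0.10 within day 12). The median of all genes shifted by 0.05 under quantile scaling. Spot intensities were not analysed, so the depth of the signal is not judged here.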

Other observations

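The gene groups below were picked after their values were seen, and they are given as values only. The enzymes that break down phenylalanine and tyrosine were lower in high-score worms at each measured step. In the order of the steps, the differences were -0.97 for pah-1, -2.55 for tatn-1, -1.35 for hpd-1, -1.88 for hgo-1, -0.47 for gst-42 and -2.2 for fah-1, and all 6 passed the limma test over all genes, with adjusted p between 2.1e-07 (fah-1) and 0.0125 (gst-42). For hgo-1, values ran between -5.06 and -1.83 (median -2.72) in high-score worms and between -2.53 and 0.81 (median -1.15) in low-score worms. Enzymes of peroxisomal beta-oxidation that shorten ascaroside side chains were lower as well, maoc-1 by a difference of -1.73, daf-22 by -0.99 and dhs-28 by -0.81, while 0 of 7 acyl-CoA oxidase genes passed, with differences of -0.65 to 0.09. Of 6 tofu genes, found in worms through a screen for piRNA factors, 5 were higher, with tofu-7 at 1.59 and tofu-1 at 1.22. Of 9 nspc genes, a family of short nematode-specific peptides, 6 were higher, with differences of up to 1.88 (nspc-16), though their sequences are alike and the probes may not measure separate genes.

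Values are given for 9 pairs of genes that encode nearly the same protein. The complex I subunit gene nduf-2.2 on chromosome III was higher by 0.81 and its X-linked paralog gas-1 was lower (-1.03). The succinate dehydrogenase gene sdha-2 on chromosome I differed by 0.67 and its X-linked paralog sdha-1 by -0.67. Of the histone H3.3 genes, his-74 on V differed by 1.39 and his-71 on X by -0.87. For the elongation factor 1 alpha genes the values were -0.04 for eef-1A.1 on III, which did not pass, and -1.55 for eef-1A.2 on X. For the poly(A)-binding protein genes they were -0.10 for pab-1 on I, which did not pass, and -1.25 for pab-2 on X. The ATP synthase genes asb-2 and asg-2 on X differed by -0.88 and -1.04, and their autosomal paralogs asb-1 (-0.14) and asg-1 (-0.05) did not pass. The ribosomal protein gene rpl-11.1 on V was higher (0.94), and rpl-11.2 on X did not pass (-0.49). For the initiation factor 5A genes the values were 0.80 for iff-1 on III and -0.42 for iff-2 on II, which did not pass (limma adjusted p = 0.247). Whether the members of a pair differ from each other was not tested.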
